A study of Mus musculus with 10 samples.

Results

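The T-box developmental regulators T, Eomes, Tbx1, Tbx2, Tbx3, Tbx4, Tbx5, Tbx15, Tbx18 and Tbx20 are 10 of the 22367 protein-coding genes of GENCODE vM1 considered here. They were taken by name, with earlier results of these data known, and are not the whole T-box family. Each was described by the ChIP-seq sites that share at least 1 bp with its gene body plus 5 kb each side in mm9. These windows held 37 of 8876 Suz12 sites, 37 of 5242 Pcl3 sites and 14 of 678 H3K27me3-depleted sites. All 10 windows held a Suz12 site, a Suz12 site that was depleted after Pcl3 knockdown and a Pcl3 site, and 8 held a site of decreased H3K27me3.

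T-box factors are transcription factors that share a DNA-binding domain named after T (Brachyury). They direct formation of the primitive streak and mesoderm, and later patterning of heart, limbs and skeleton, and are mostly silent in undifferentiated ESCs, where many developmental regulators carry H3K27me3. This repressive histone mark is set by Polycomb repressive complex PRC2, of which Suz12 is a core subunit and Pcl3 (Phf19) an accessory, Polycomb-like subunit.

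The study comprised 6 ChIP and 4 input libraries from mouse ESCs, with 1 library for each condition. Suz12 and H3K27me3 were profiled in Suz12Suz12TAP/+ cells, made from the gene trap line XG122, in which one endogenous Suz12 allele encodes a tagged Suz12 and the other is untagged. These cells expressed either scramble shRNA, a non-targeting control, or Pcl3 shRNA, and Suz12 was pulled down through the Flag tag. Pcl3 was profiled in E14 ESCs that expressed Pcl3 shRNA 6 or 7 together with a TAP-tagged Pcl3 that these shRNAs do not recognize. The Pcl3 sites are therefore those of a tagged, introduced Pcl3, in cells other than those used for Suz12 and H3K27me3. The question for the T-box genes was where Suz12 and Pcl3 were bound and where Suz12 or H3K27me3 decreased upon Pcl3 knockdown.

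The data are site lists in which every site has 1 p-value. A Suz12 or Pcl3 site is a region with more reads in the ChIP than in input, called by the authors at a p-value cutoff of 1e-07. A Suz12-depleted site is a Suz12 site of scramble cells that had fewer reads after Pcl3 knockdown, and its listed p-value is that of binding. An H3K27me3-depleted site is a region with fewer H3K27me3 reads after knockdown, and its p-value is that of the decrease. Suz12 sites outside the depleted list are called kept here, which says only that no decrease was listed. Neither the extent of a decrease, nor the reads per library, nor the level of Pcl3 in each population can be read from these lists. With 1 library per condition the data hold no replicate error, and no test was run. Shares at the T-box genes are set beside the same shares over all genes or all sites as descriptions of these libraries.

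Sequences at the centers of 7 sites are printed to show the DNA underlying the contrasts described further on. They were chosen after the values were seen and read from mm9 on the strand of the gene, and each spans 200 bp outside any annotated UTR. CpG dinucleotides, which are dense at many PRC2 targets, are in capitals. The first 4 are centers of sites with decreased H3K27me3. The one of Tbx5, in an intron, had the smallest H3K27me3 p-value of the T-box genes, and that of Tbx20, upstream of the gene, the next. Tbx2, downstream of the gene, lies in the widest Suz12 site of the list, and Tbx15, in an intron, holds no CpG.
Tbx5 H3K27me3-depleted site, chr5:120289926-120290125, plus strand: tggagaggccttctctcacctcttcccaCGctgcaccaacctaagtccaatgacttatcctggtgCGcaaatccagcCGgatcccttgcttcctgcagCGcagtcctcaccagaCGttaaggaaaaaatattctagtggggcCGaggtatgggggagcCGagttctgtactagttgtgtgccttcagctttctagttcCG
Tbx20 H3K27me3-depleted site, chr9:24582326-24582525, minus strand: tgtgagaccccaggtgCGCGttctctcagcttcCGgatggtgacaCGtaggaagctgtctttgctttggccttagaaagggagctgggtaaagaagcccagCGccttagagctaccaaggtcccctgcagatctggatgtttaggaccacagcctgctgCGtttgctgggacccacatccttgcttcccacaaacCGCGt
Tbx2 H3K27me3-depleted site, chr11:85657851-85658050, plus strand: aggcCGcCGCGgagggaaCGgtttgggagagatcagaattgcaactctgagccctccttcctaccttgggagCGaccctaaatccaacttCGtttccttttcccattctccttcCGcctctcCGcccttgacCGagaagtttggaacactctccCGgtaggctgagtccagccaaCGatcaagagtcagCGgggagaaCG
Tbx15 H3K27me3-depleted site, chr3:99061301-99061500, plus strand: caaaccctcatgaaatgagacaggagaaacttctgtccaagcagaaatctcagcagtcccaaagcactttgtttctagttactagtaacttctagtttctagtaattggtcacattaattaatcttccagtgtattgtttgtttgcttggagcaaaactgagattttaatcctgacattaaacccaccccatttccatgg

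The next 2 are centers of the widest Suz12 sites of T and Tbx18, which lost Suz12 without a listed decrease of H3K27me3. The T center is upstream of the gene and the Tbx18 center in an intron. The last is the center of a kept Suz12 site just upstream of the Tbx5 start.
T Suz12-depleted site, chr17:8626726-8626925, plus strand: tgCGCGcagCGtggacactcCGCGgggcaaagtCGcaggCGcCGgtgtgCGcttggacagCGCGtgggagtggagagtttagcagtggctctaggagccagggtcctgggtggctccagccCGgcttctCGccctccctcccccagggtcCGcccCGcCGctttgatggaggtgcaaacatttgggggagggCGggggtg
Tbx18 Suz12-depleted site, chr9:87625101-87625300, minus strand: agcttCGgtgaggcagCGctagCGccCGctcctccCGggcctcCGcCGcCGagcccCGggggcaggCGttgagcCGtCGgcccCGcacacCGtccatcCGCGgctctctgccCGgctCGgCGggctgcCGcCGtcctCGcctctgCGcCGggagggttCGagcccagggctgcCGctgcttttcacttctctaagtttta
Tbx5 kept Suz12 site, chr5:120284126-120284325, plus strand: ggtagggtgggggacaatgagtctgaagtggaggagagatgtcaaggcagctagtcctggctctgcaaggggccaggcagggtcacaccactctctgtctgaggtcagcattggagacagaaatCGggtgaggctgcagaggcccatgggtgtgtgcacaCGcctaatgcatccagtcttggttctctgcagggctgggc

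The windows of T and Tbx18 held 17 and 26 CpG, at a GC content of 69.5% and 73%. The windows of decreased H3K27me3 held 8 CpG at Tbx5, 8 at Tbx20, 13 at Tbx2 and 0 at Tbx15, and the kept Tbx5 window held 2. Windows of the same size at H3K27me3-depleted sites of the other genes, not printed, held 16 CpG at Eomes, 11 at Tbx4, 10 at Tbx3 and 5 at Tbx1, so the count at Eomes was next to that at T. The windows of T and Tbx18 are centers of Suz12 sites, so their counts and those at H3K27me3-depleted sites are not of like kind. In the central 500 bp of the widest Suz12 site, CpG per 100 bp was 8.2 at T and 14.4 at Tbx18. It was 12 at Tbx1, 8.6 at Tbx3, 8.2 at Eomes and 2.8 to 4.8 at the other genes with decreased H3K27me3.

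Compared with protein-coding genes as a whole, these 10 T-box genes held sites of every list at a higher share. They were chosen with earlier results known, so their shares do not speak for the T-box family. The 7 other T-box genes are described further on. Suz12 sites lay at 10 of 10 T-box genes and at 28.8% of all protein-coding genes. Suz12-depleted sites were found at 10 of 10 against 20.7%, and Pcl3 sites at 10 of 10 against 14.7%. Decreased H3K27me3 was found at 8 of 10 T-box genes and at 3.13% of all genes. Genes bound by Suz12 are a closer reference. Among genes with a Suz12 site, 71.7% also had a depleted one, and Pcl3 sites lay at 47.7%. Where depleted Suz12 and Pcl3 lay at the same gene, as at all 10 T-box genes, 17.4% of genes had decreased H3K27me3, against 8 of 10. The T-box windows were somewhat longer, with a median of 31258 bp against 25427 bp. Windows of 2 kb each side of every annotated transcript start do not grow with gene length, though they do with the number of starts. In these, decreased H3K27me3 was found at 4 of 10 T-box genes, namely Eomes, Tbx1, Tbx3 and Tbx4, and at 1.91% of all genes.

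**Figure D1:**
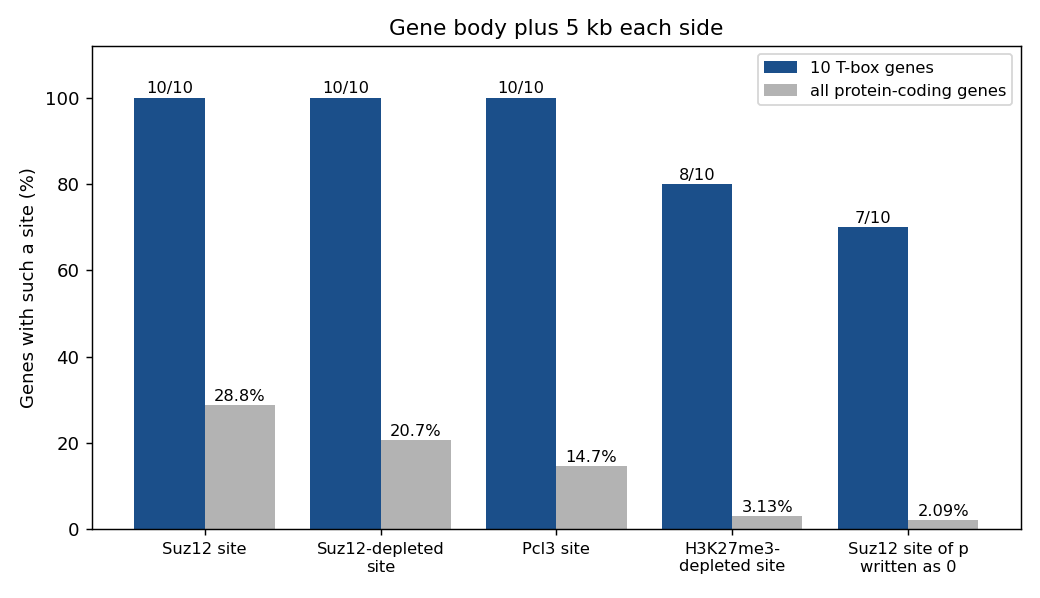
Percent of genes (y axis) with at least 1 site of each kind (x axis) in the gene body plus 5 kb each side, for the 10 T-box genes (blue, with the count) and for all 22367 protein-coding genes (grey, with the percent). All 10 T-box genes have Suz12, Suz12-depleted and Pcl3 sites, 8 have decreased H3K27me3 and 7 a Suz12 site whose p-value is written as 0.

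The T-box genes also carried strong and long Suz12 sites. At 7 of them, T, Eomes, Tbx1, Tbx2, Tbx3, Tbx4 and Tbx18, the smallest Suz12 p-value was too small for the number format and is written as 0, as at 2.09% of all genes. Of these 7 genes, 5 had decreased H3K27me3, against 34% of all genes with such a site. At the other 3 genes the smallest Suz12 p-value was 2e-192 at Tbx15, 1.7e-173 at Tbx5 and 1.43e-136 at Tbx20. The median number of Suz12 sites was 3 per T-box gene and 1 per gene over all genes with a Suz12 site. Suz12 sites covered a median of 10375 bp of a T-box window, against 1400 bp. Ranked by the covered length among the 6442 genes with a Suz12 site, Tbx2 was 21, Tbx3 50, Tbx15 51, Tbx5 63 and Tbx1 67. Eomes, Tbx4, Tbx18, Tbx20 and T followed at ranks 178, 206, 419, 470 and 584. Covered length can grow with the window. By the percent of the window covered, the ranks were 9 at Tbx2, 47 at Tbx1, 121 at Tbx3 and 145 at Eomes. T, Tbx4, Tbx5, Tbx18, Tbx15 and Tbx20 followed at 407, 534, 578, 847, 1250 and 1514.

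**Figure D2:**
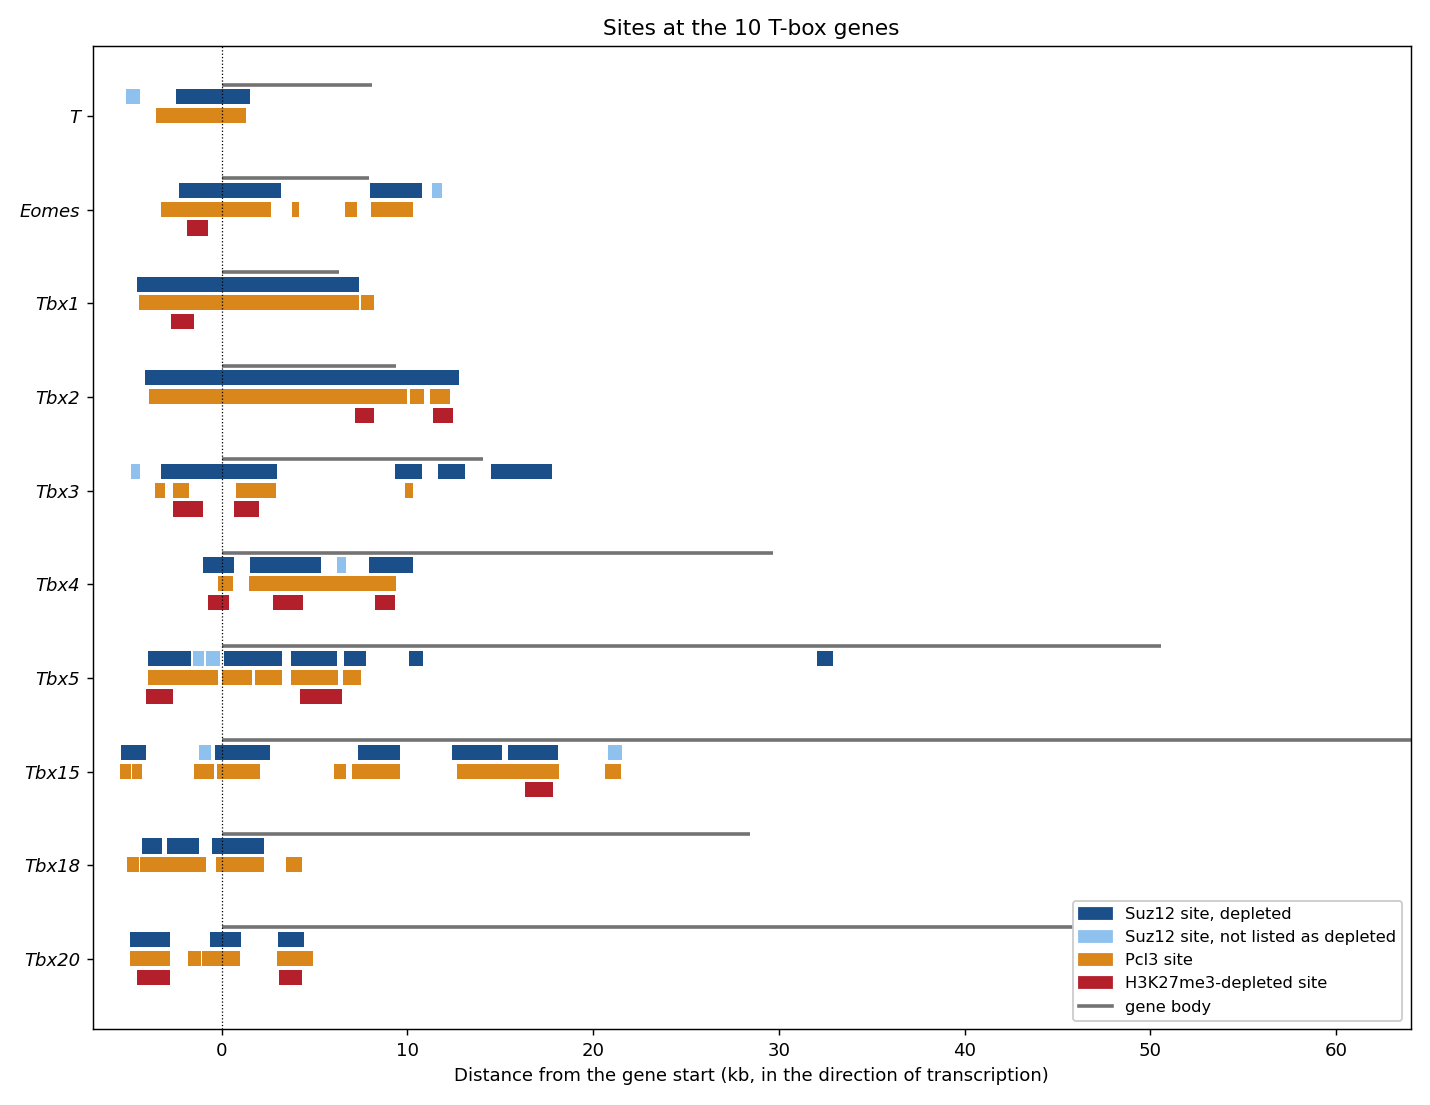
Sites at each T-box gene by distance from its start (x axis, kb, in the direction of transcription), with the gene body as a grey line, which for Tbx15 runs past the right edge. Dark blue bars are depleted Suz12 sites, light blue bars kept ones, orange bars Pcl3 sites and red bars H3K27me3-depleted sites, and no red bar is drawn for T and Tbx18.

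Among the regulators of the primitive streak and early mesoderm, both T and Eomes had a depleted Suz12 site over the start, and a decrease of H3K27me3 was listed at Eomes. T (Brachyury), which drives mesoderm and notochord formation, lies on chromosome 17 from 8627288 to 8635361. Its main Suz12 site was 3950 bp wide, had a p-value written as 0, reached from 2437 bp upstream to 1512 bp downstream of the start, and was depleted. A Pcl3 site of 4850 bp with a p-value of 6.74e-239 covered 94.9% of it. A second, weak Suz12 site of 750 bp (p-value 2.48e-14), more than 4 kb upstream, was kept and had no Pcl3. No site of decreased H3K27me3 lay in the window of T, the nearest being 360390 bp from the gene.

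Eomes, which acts in endoderm and mesoderm specification and in the trophoblast, lies on chromosome 9 from 118387330 to 118395250. Its Suz12 site over the start was 5450 bp wide with a p-value written as 0 and was depleted, and Pcl3 shared 90.8% of its bases. Inside this site, 730 to 1879 bp upstream of the start, H3K27me3 was decreased over 1150 bp (p-value 4.81e-08). A second depleted Suz12 site of 2800 bp (p-value 3.39e-121) began just past the gene's end and showed no listed decrease of H3K27me3, although Pcl3 covered 82.1% of it. The third Suz12 site, of 550 bp and farther downstream (p-value 1.36e-08) was kept.

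Tbx1, Tbx5, Tbx18 and Tbx20 act in the heart and its progenitors, and 3 of the 4 had decreased H3K27me3. Tbx1, a regulator of the pharyngeal arches and outflow tract, lies on chromosome 16 from 18581806 to 18588113 and was covered by a single Suz12 site of 11950 bp with a p-value written as 0. This site spanned the whole gene, ranked 9 by width among all Suz12 sites and was depleted. Pcl3 covered 98.7% of its bases, while H3K27me3 was decreased over 1250 bp only (p-value 8.27e-08), between 1488 and 2737 bp upstream of the start.

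Tbx20, required for heart chamber growth, lies on chromosome 9 from 24527648 to 24578746 and had 3 separate Suz12 sites, all depleted. The site over the start was the strongest of the 3 (1700 bp, p-value 1.43e-136), yet the decreases of H3K27me3 lay at the 2 others. Upstream of the start, a Suz12 site of 2150 bp (p-value 1.5e-67) contained 1750 bp of decreased H3K27me3 (p-value 1.18e-12). In the first part of the gene, a Suz12 site of 1400 bp (p-value 2.71e-98) contained 1250 bp (p-value 2.77e-08). Pcl3 covered all of both sites and 97.1% of the site over the start. The Pcl3 p-values were 2.36e-65 upstream, 1.85e-86 in the gene and 1.72e-59 over the start. Whether the amount of Pcl3 differed between these sites was not tested.

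Tbx5, which governs heart septation and forelimb outgrowth, lies on chromosome 5 from 120284672 to 120335227 and had the most Suz12 sites, 8, of which 6 were depleted. It was the only T-box gene whose start lay outside every Suz12 site. The start fell between a kept site of 750 bp (p-value 3.33e-15), ending 72 bp upstream, and a depleted site of 3100 bp (p-value 1.7e-173), beginning 129 bp downstream. A second kept site of 550 bp (p-value 4.94e-10) lay 150 bp from a depleted site of 2300 bp. A Pcl3 site of 3750 bp (p-value 6.43e-97) covered this depleted site and the kept site of 550 bp, and 80% of the kept site of 750 bp, so kept and depleted Suz12 sites here shared 1 Pcl3 site. The kept window printed above, at the center of the 750 bp site, is poor in CpG, as is the site as a whole (0.267 CpG per 100 bp).

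H3K27me3 was decreased at 2 places at Tbx5, neither of them at the start. The decrease inside the gene, 4229 to 6478 bp downstream of the start, was 2250 bp wide and had a p-value of 7.22e-17, rank 35 of the 678 sites. Upstream, 1450 bp were affected (p-value 5.1e-08). The strongest Suz12 site of Tbx5, that of 3100 bp, had no listed decrease of H3K27me3, as at Tbx20. Another 2 Suz12 sites, of 750 and 900 bp, lay 10079 and 32029 bp downstream of the start and were depleted without a Pcl3 site.

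Tbx18, active in the epicardium and the sinus node, lies on chromosome 9 from 87597635 to 87626095. Its 3 Suz12 sites were all depleted and shared bases with Pcl3. The site over the start was 2800 bp wide, had a p-value written as 0 and held 7.18 CpG per 100 bp, the highest density of the 37 sites. The other 2, of 1750 bp (p-value 3.08e-58) and 1100 bp (p-value 1.51e-20), lay upstream. Like T, Tbx18 had no site of decreased H3K27me3, and the nearest lay 595656 bp away.

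Tbx2, Tbx3, Tbx4 and Tbx15 act in limb and skeletal development, with Tbx2 and Tbx3 being repressors that also act in the atrioventricular canal. Tbx2 lies on chromosome 11 from 85646053 to 85655450 inside a single depleted Suz12 site of 16950 bp with a p-value written as 0, rank 1 by width among all 8876 sites. Pcl3 covered 92.6% of this site in 3 pieces, the longest 13850 bp. H3K27me3 was decreased at 2 places in it, of 1000 bp inside the gene (p-value 4.21e-08) and 1100 bp past its end (p-value 2.8e-09), together 2100 bp, and not over the start. The site ran over a lincRNA gene, 2610027K06Rik, as well as over Tbx2.

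Tbx3, which also supports mammary gland development and is expressed in ESCs, lies on chromosome 5 from 120120678 to 120134733 and was the gene where Suz12 and Pcl3 overlapped least. Its 5 Suz12 sites added to 12900 bp, of which 27.9% lay in Pcl3 sites, whereas the share was between 78.9% and 99% at the other 9 genes. The site over the start, 6250 bp with a p-value written as 0, was shared with Pcl3 over 51.2% of its bases, and its Pcl3 sites left out the start itself. The smallest Pcl3 p-value of Tbx3 was 3.42e-41, the largest such value of the 10 genes, of which the others ranged from 1.85e-86 down to 0. Toward the end of the gene and past it, Suz12 sites of 1500 bp (p-value 1.82e-67) and 3250 bp (p-value 1.75e-107) were depleted without any Pcl3 site. H3K27me3 was decreased at 2 places in the site over the start, over 1350 bp (p-value 1.95e-10) and 1600 bp (p-value 2.63e-09), on either side of the start. Transcripts on the other strand, Gm2301 and Gm16065, overlap 3 of the Suz12 sites counted here for Tbx3.

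Tbx4, a hindlimb and lung regulator on chromosome 11 from 85699924 to 85729599, had the most sites of decreased H3K27me3, 3, and the only one that spanned a gene start. That site reached from 723 bp upstream to 376 bp downstream (p-value 4.69e-09). The others, 1600 bp with a p-value of 5.85e-10 and 1100 bp with a p-value of 7.84e-09, lay in the first part of the gene. Each fell in a different depleted Suz12 site, of 1700, 3800 and 2350 bp, the widest of which had a p-value written as 0. Between the second and the third, a Suz12 site of 450 bp (p-value 3.55e-09) was kept, although a single Pcl3 site of 7900 bp with a p-value written as 0 shared bases with all 3 of these Suz12 sites, over 61.7% of the last.

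Tbx15, a regulator of skeletal growth and coat patterning, lies on chromosome 3 from 99044304 to 99158182 and had 7 Suz12 sites, 5 of them depleted, and the most Pcl3 sites, 8. The Suz12 sites over the start (2950 bp, p-value 2e-192) and in the gene (2250 bp, p-value 6.91e-86, and 2700 bp, p-value 3.25e-168) were depleted without a listed decrease of H3K27me3. H3K27me3 was decreased at the next site in the gene (2700 bp, p-value 1.68e-104), over 1500 bp that began 16347 bp downstream of the start (p-value 6.64e-10). A Tbx15 Suz12 site of 1300 bp lies over the neighbouring gene Wars2, which ends upstream of the Tbx15 start. A kept site of 600 bp shares only the last few bases of Wars2.

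**Figure D3:**
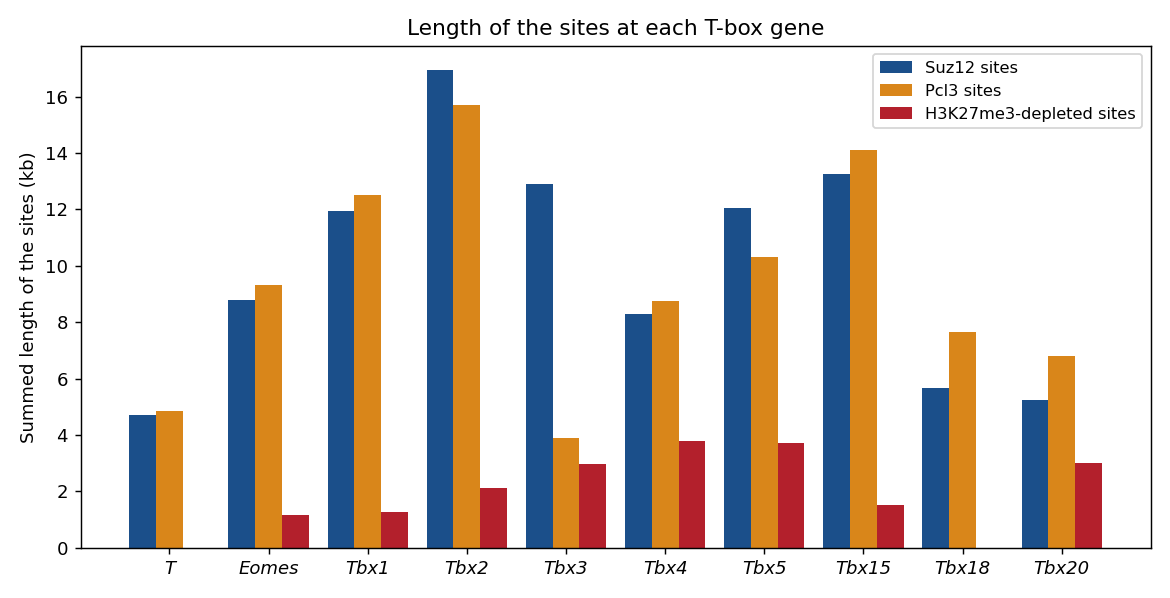
Summed length in kb (y axis) of the Suz12 sites (blue), Pcl3 sites (orange) and H3K27me3-depleted sites (red) of each T-box gene (x axis), 1 list per kind of site and no replicates. Suz12 and Pcl3 bars differ most at Tbx3, with 12900 bp of Suz12 and 3900 bp of Pcl3 sites. At Tbx18 the Pcl3 bar is the longer (7650 against 5650 bp), as at Tbx20 (6800 against 5250 bp). It is also the longer, by less, at T, Eomes, Tbx1, Tbx4 and Tbx15. The red bar is lower than the blue one at each gene.

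Taking the 37 Suz12 sites of the T-box genes together, 29 were depleted, or 78.4% (95% Wilson interval over sites 62.8% to 88.6%), against 64.5% of all Suz12 sites. Bases were shared with Pcl3 at 30 of 37, or 81.1% (65.8% to 90.5%), against 44.3%, and with decreased H3K27me3 at 12 of 37, or 32.4%, against 6.89%. These intervals cover the number of sites only, and neighbouring sites at 1 gene are not independent. The sites had a median width of 1750 bp (450 to 16950 bp) against 1100 bp over all Suz12 sites. The median of −log10 p was 97.6 against 26.2.

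The listing of Suz12 sites as depleted followed the strength of the site at the T-box genes as it did elsewhere. Strength and the depleted call both draw on the scramble Suz12 library. The authors allow that a decrease may be harder to detect at weaker peaks. Whether weaker sites lost less Suz12 was not tested. Of the sites with a −log10 p of 60 or more, 23 of 23 were depleted, against 99.9% of all sites in that class, and between 20 and 60 the numbers were 3 of 3 and 87.2%. Below 20, 3 of 11 were depleted, or 27.3%, against 24% of all such sites. Within a class, the T-box share was therefore close to that of all sites. The 8 kept sites were short, 450 to 750 bp, with −log10 p between 7.87 and 15.1, and were found at T, Eomes, Tbx3, Tbx4, Tbx5 and Tbx15. Each lay beside a depleted site, at a distance of 150 bp at the closest (Tbx5) and 2700 bp at the farthest (Tbx15). Of these 8, 5 shared bases with Pcl3, against 14.5% of all kept sites.

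**Figure D4:**
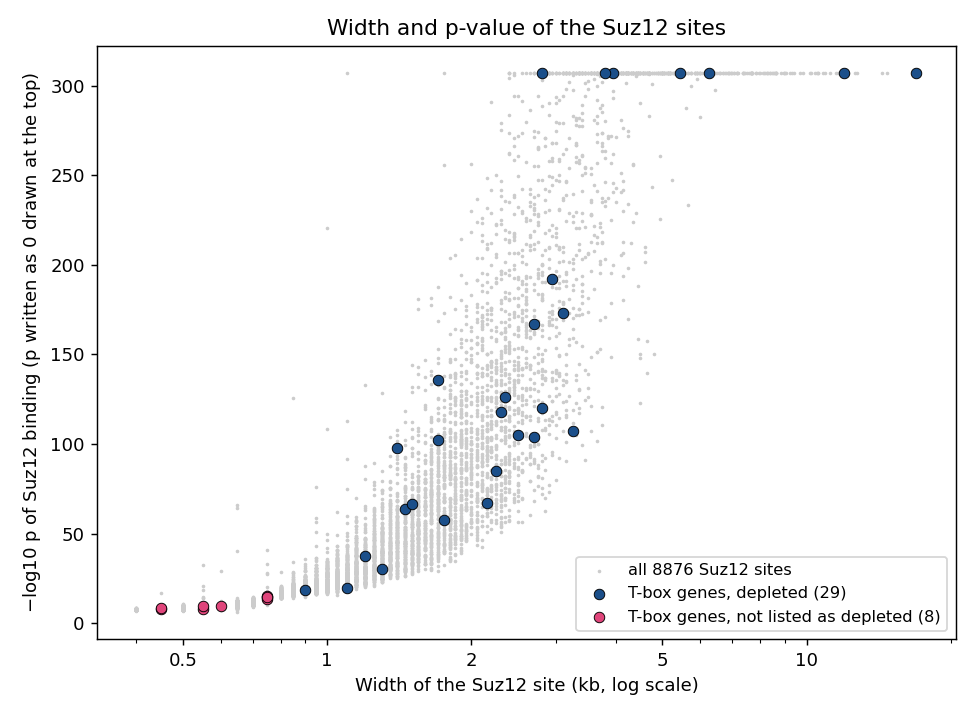
Width (x axis, kb, log scale) and −log10 p (y axis) of all 8876 Suz12 sites (grey) and of the 37 sites of the T-box genes, 29 depleted (blue) and 8 kept (pink), with p-values written as 0 drawn at 307. The pink points lie together at the lower left, and 7 blue points lie on the top line.

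**Figure D5:**
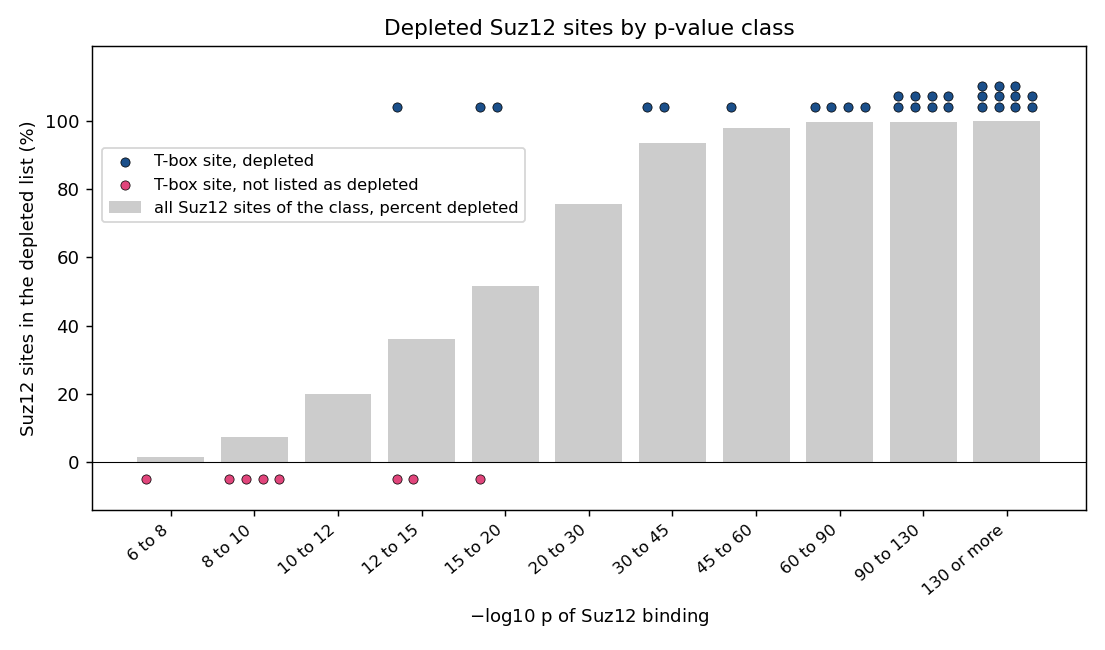
Percent of all Suz12 sites in the depleted list (grey bars, y axis) by class of −log10 p (x axis), with each T-box site as a point, above the bars if depleted (blue) and under the axis if kept (pink). All kept T-box sites lie below a −log10 p of 20, where the share over all sites climbs from 1.56% to 51.6%.

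The presence of Pcl3 and the decrease of H3K27me3 were also compared within classes of sites. Of the 29 depleted T-box sites, 25 (86.2%) shared bases with Pcl3, against 60.7% of all depleted sites, and 4 did not, 2 at Tbx3 and 2 at Tbx5. All 12 Suz12 sites with decreased H3K27me3 were among those 25, a share of 48% against 12% of all depleted sites with Pcl3. Restricting to Suz12 sites of 2000 bp or more, 10 of 18 T-box sites, or 55.6%, shared bases with decreased H3K27me3, against 17.2% of all sites of that width. Of the 7 sites with a p-value written as 0, 5 did so (71.4%, against 22.3%), the exceptions being those of T and Tbx18. The share at the T-box genes was higher in each of these classes, taken 1 at a time, without a test of the difference. The classes have no upper limit, so the sites in them are not matched in width or strength. Of the 37 T-box sites, 10.8% were 4000 bp or more wide, against 3.83% of all Suz12 sites. These were the sites over the starts of Eomes, Tbx1, Tbx2 and Tbx3, all with decreased H3K27me3.

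The listed sites of decreased H3K27me3 held only part of the bound DNA, which does not show how much H3K27me3 was lost elsewhere. They covered 19.1% of the Suz12-bound bases at the T-box genes, against 5.99% over all Suz12 sites, whereas Pcl3 covered 81.3% against 48.8%. Each of the 14 H3K27me3-depleted sites shared bases with a depleted Suz12 site, as did 86.4% of all 678. Each also shared bases with a Pcl3 site, against 63.1%. Relative to the gene start, 8 lay downstream, 5 upstream and 1 across it. Their p-values were ordinary for the list, with a median −log10 p of 8.44 against 8.49 and a median width of 1300 bp against 1350 bp. Only 2 of the 14, at Tbx5 and Tbx20, had a p-value of at most 1e-10, a limit met by 29.6% of all H3K27me3-depleted sites.

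Chromosome 11 holds Tbx2 and Tbx4 and 29.2% of all H3K27me3-depleted sites, including 5 of the 14 at the T-box genes. On the other chromosomes, 6 of 8 T-box genes had decreased H3K27me3, against 2.45% of all genes there.

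In both tandem gene pairs, Tbx2 with Tbx4 and Tbx3 with Tbx5, each member had decreased H3K27me3, but the DNA between the members differed. Tbx2 and Tbx4 lie 44473 bp apart, and no site of any list was found between their windows. Tbx3 and Tbx5 lie 149938 bp apart, with 5 Suz12, 5 Pcl3 and 1 H3K27me3-depleted site between their windows, all of them outside the counts given so far. The widest Suz12 site there, 3000 bp with a p-value written as 0, lay 29222 bp before the Tbx5 start, was depleted and held the decrease of H3K27me3 (1650 bp, p-value 1.8e-10). Suz12-depleted sites of 2050, 1200 and 700 bp lay around it.

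In base composition, the median CpG density of the T-box Suz12 sites lay below that of the list, though single sites lay above it. The central 500 bp held a median of 4.2 CpG per 100 bp (0.4 to 14.4), against 7 over all Suz12 sites, and at Pcl3 sites the medians were 3.6 and 6. At H3K27me3-depleted sites the T-box median was 5, against 4.6. The CpG-rich word GCGCGC, which reads the same on both strands, was found in the central 500 bp of 5 of 37 T-box Suz12 sites, or 13.5%, against 37.5% of all Suz12 sites. One of the 5 is the T site printed above, the capitals of which begin inside that word. The word was found in 16.2% of the T-box Pcl3 sites against 33.7%, and in 1 of 14 H3K27me3-depleted sites, or 7.14%, against 19.8%. TCACACCT, a T-box binding element searched on both strands, was found in 1 of 37 T-box Suz12 sites, at Tbx15, or 2.7%, against 1.44% of all Suz12 sites. It was found in 0 of 37 Pcl3 sites and 0 of 14 H3K27me3-depleted sites of the T-box genes, against 2% and 1.47% of the full lists.

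Sites were fewer at the remaining mouse T-box genes, Tbr1, Tbx6, Tbx10, Tbx19, Tbx21, Tbx22 and Mga. Of these, 3 of 7 had a Suz12 site, 2 a depleted one and 2 a Pcl3 site, and none had decreased H3K27me3. The T-box genes described above were chosen with earlier results known, and this contrast was not tested. Tbr1, a cortical neuron factor, had 4 Suz12 sites, all depleted, with a smallest p-value of 4.45e-249. Tbx21 (T-bet), a T helper cell factor, had 1 depleted site (p-value 4.62e-186), and Tbx22, a palate factor, 1 kept site of 450 bp (p-value 2.72e-08). No Suz12 site lay in the windows of Tbx6, Tbx10, Tbx19 and Mga, the last a broadly expressed partner of Max.

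Genes that act with the T-box factors in the same tissues were described in the same way. Of 9 cardiac partners, 9 had Suz12, Suz12-depleted and Pcl3 sites, and 2 had decreased H3K27me3. These were Gata4, with a smallest p-value of 2.29e-10, and Hand1, with 7.07e-17, a value next to that of Tbx5. Of 10 genes of the primitive streak, 9 had all 3 kinds of sites and 5 had decreased H3K27me3. These 5 were the transcription factors Gsc (p-value 1.06e-08), Mesp1 (p-value 3.44e-08) and Lhx1 (p-value 1.69e-14) and the ligands Wnt3 (p-value 1.46e-20) and Wnt3a (p-value 5.76e-12). Nodal, the ligand that maintains the early epiblast, had no Suz12 site in its window, the nearest being 50265 bp from the gene.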

How the data were processed

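ChIP-seq site lists of mouse ESCs were used as deposited. The authors aligned 30-nt reads to mm9 with Bowtie, kept unique alignments, equalized the background of paired libraries and tested windows of 400 bp with the Skellam distribution at 1e-07. Significant windows that overlapped were joined. The authors deposited 4 site lists with 1 p-value per site, the only measured value. P-values written as 0 (435 Suz12 and 208 Pcl3 sites) were placed at a −log10 of 307. All 5722 depleted sites repeat the position and p-value of a binding site. Equal background assumes equal copy number in paired libraries, and unique alignment leaves out repeats. Whether the 2 Pcl3 libraries were pooled for their 1 list is not given in the sources used here. Reads per library were not analysed here.

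Genes are the 22367 protein-coding genes of GENCODE vM1. A site belonged to a gene if it shared at least 1 bp with the gene body plus 5 kb each side. Distances are from the start of the gene record, and sites within 2 kb of a start use every annotated transcript. Named were all members, the other T-box genes, and those of the partner lists with decreased H3K27me3 or no Suz12 site. The members and lists were chosen with earlier results of these data known. Overlap functions were tested on simulated data. Software versions were matplotlib 3.10.9, samtools 1.23.1, pysam 0.24.0, scipy 1.17.1, pandas 2.3.3 and numpy 2.4.6 under Python 3.11.15.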

Additional observations from a re-analysis of the deposited data

How the results depend on the processing

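Of 83 values recomputed under other windows, p-value limits, overlap rules and merging, or without chromosome 11, 72 stayed within 1.5 times (counts and medians) or inside the 95% Wilson interval (percents). Some of these could hardly move. Each T-box gene had a Suz12 p-value of at most 1.43e-136, so the lower p-value limits could not change the count with a Suz12 site. The median over genes of the strongest Suz12 site stayed at 307, the value given to p-values written as 0. The counts of T-box genes with Suz12, Suz12-depleted and Pcl3 sites were 10 under each alternative, or 8 of 8 without chromosome 11. The number with decreased H3K27me3 fell from 8 to 4 within 2 kb of a start site, to 2 (Tbx5 and Tbx20) at p-values of at most 1e-10 and to 1 (Tbx5) at 1e-12. Over all genes these shares were 1.91%, 1.07% and 0.63%. The 37 Suz12 sites became 24 in the gene body alone, 20 within 2 kb of a start site and 24 when sites under 1 kb apart were merged, with a median width of 3525 bp. The depleted share of 78.4% became 91.7% in the gene body alone, 90.6% at p-values of at most 1e-10 and 90.6% at 1e-12, while that of all Suz12 sites rose from 64.5% to 76.9% and 82.4% at these limits, and the share with Pcl3 became 95% within 2 kb of a start site. Smaller windows and lower p-value limits leave out flanking and weak sites by construction. No paired analysis was possible because each condition has 1 library and no test was run. The lists hold no reads, so the precision of a single site is unknown, and differences between cultures or shRNA clones cannot be told apart from the knockdown. The authors also reported less Suz12 mRNA and protein after Pcl3 knockdown, which they say may account for part of the reduced binding. A lower Suz12 level and a loss at a given site cannot be told apart here. The tagged cells had moderately raised Suz12, and the authors allow that additional weak sites may be an artifact of this.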
